A study of Canis lupus familiaris with 5 samples.

Results

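The genes described here copy DNA or prepare a cell for copying it. The list held 38 symbols, of which 36 were present among the 20257 features of the files, and CDCA7 and PRIM1 were not analysed here. Of the 36, 10 license origins or form the replicative helicase (MCM2 to MCM7, CDC45, GINS2, CDC6 and GMNN), and 6 build the new strand at the fork (PCNA, RFC2, RPA2, POLA1, POLD3 and FEN1). Another 4 supply nucleotides or remove uracil (RRM1, RRM2, TYMS and UNG). The 7 genes UHRF1, HELLS, NASP, CHAF1B, SLBP, ATAD2 and WDR76 act on chromatin, histones or DNA methylation behind the fork. The last 9 are 8 genes of fork protection, repair and cohesion (CLSPN, TIPIN, DTL, USP1, RAD51AP1, BLM, EXO1 and DSCC1) and the cyclin CCNE2.

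Before DNA synthesis, CDC6 and its partners load the ring of MCM2 to MCM7 onto origins, and geminin (GMNN) blocks a second loading in the same cycle. CDC45 and the GINS complex then turn the ring into an active helicase, PCNA clamps the polymerases to DNA, and RRM1 with RRM2 makes the deoxynucleotides. Most of these genes are driven by E2F factors at the entry to S phase. In marrow, erythroid, early myeloid and early B precursors divide, whereas segmented neutrophils have left the cell cycle.

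The samples were 10x Genomics 3' single-cell libraries of femoral marrow from 3 healthy wild-type dogs, after lysis of red cells. Unsorted marrow was held by 3 libraries, called marrows 1, 2 and 3 below, and 2 libraries, called sorted 1 and 2, held viable cells sorted for CD34, a surface protein of stem and progenitor cells. The sorted cells came from marrows 2 and 3, and the titles do not say which sorted library belongs to which marrow. Whole marrow was loaded only when it passed limits on viability and on the share of neutrophils, so the frequencies of cells are not those of an unselected marrow.

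A barcode was kept when 200 or more genes were detected and mitochondrial transcripts made up no more than 10% of its UMIs (unique molecular identifiers, 1 per captured transcript), which left 7295, 4585 and 4343 barcodes in marrows 1 to 3 and 4720 and 3765 in sorted 1 and 2. Kept barcodes summed to between 44642408 and 61101458 UMIs a library. Between 4 and 12 barcodes were shared by any pair of libraries. A set of 10 gates on raw UMIs stood for lineage and stage. They were SULT1B1 plus TFPI of at least 4 UMIs (called the stem gate), GATA1 of at least 2 with AHSP under 0.2% of UMIs, AHSP of at least 0.2%, MPO of at least 0.1% with ELANE under 1%, ELANE of at least 1%, CAMP of at least 1%, CXCL8 of at least 2, VCAN of at least 2, VPREB1 of at least 5 and MS4A1 of at least 2 UMIs. Gates set by a number of UMIs take deeper barcodes more easily than gates set by a percentage.

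Marker genes that the gates did not use followed them in part. The summed level of the erythroblast markers was 13354 to 14239 CPM (UMIs of a gene scaled to the same library total in every sum) in the AHSP gate of whole marrow and at most 275 CPM in the other gates. Early neutrophil markers summed to 99056 to 140943 CPM in the ELANE gate, and secondary-granule markers to 192323 to 208244 CPM in the CAMP gate. Without CD79A, which stood at a high level in every gate, pro-B and pre-B markers summed to 2262 to 3746 CPM in the VPREB1 gate of whole marrow. The VCAN gate of whole marrow held monocyte markers at 2260 to 3020 CPM beside secondary-granule markers at 44276 to 50607 CPM. Plasma cell markers summed to 2639 to 5894 CPM in the MS4A1 gate. The MPO gate held secondary-granule markers at 6269 to 14561 CPM in whole marrow and at 470 to 1412 CPM in the sorted libraries. The part of these other cells in the results was not tested.

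By the mean over the marrows, the 36 genes took their largest share of UMIs in the VPREB1 gate, followed by the AHSP gate, and smaller shares in the granulocyte gates. With the gates as written, the share in the VPREB1 gate was 0.348%, 0.398% and 0.465% in marrows 1, 2 and 3, and 0.321% and 0.388% in sorted 1 and 2. In the AHSP gate it was 0.348%, 0.340% and 0.340%. The VPREB1 and AHSP gates overlapped, since marrow 1 was at the same level in both. In the MPO gate it was 0.246%, 0.232% and 0.222% in whole marrow and 0.225% and 0.201% in the sorted libraries. The stem gate of the sorted libraries stood at 0.240% and 0.249%, and their GATA1 gate at 0.239% and 0.210%. In the sorted libraries the stem gate was highest of these 3 gates as written, where 558 of 1534 and 803 of 1675 of its barcodes were also VPREB1 barcodes. Among barcodes of exactly 1 gate that order did not hold: the stem gate stood at 0.211% and 0.204%, the GATA1 gate at 0.239% and 0.206% and the MPO gate at 0.222% and 0.201%, with overlap. In whole marrow the ELANE gate held 0.108%, 0.140% and 0.138% and the CAMP gate 0.112%, 0.120% and 0.113%, which overlapped and lay below the MPO gate in every marrow.

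**Figure D1:**
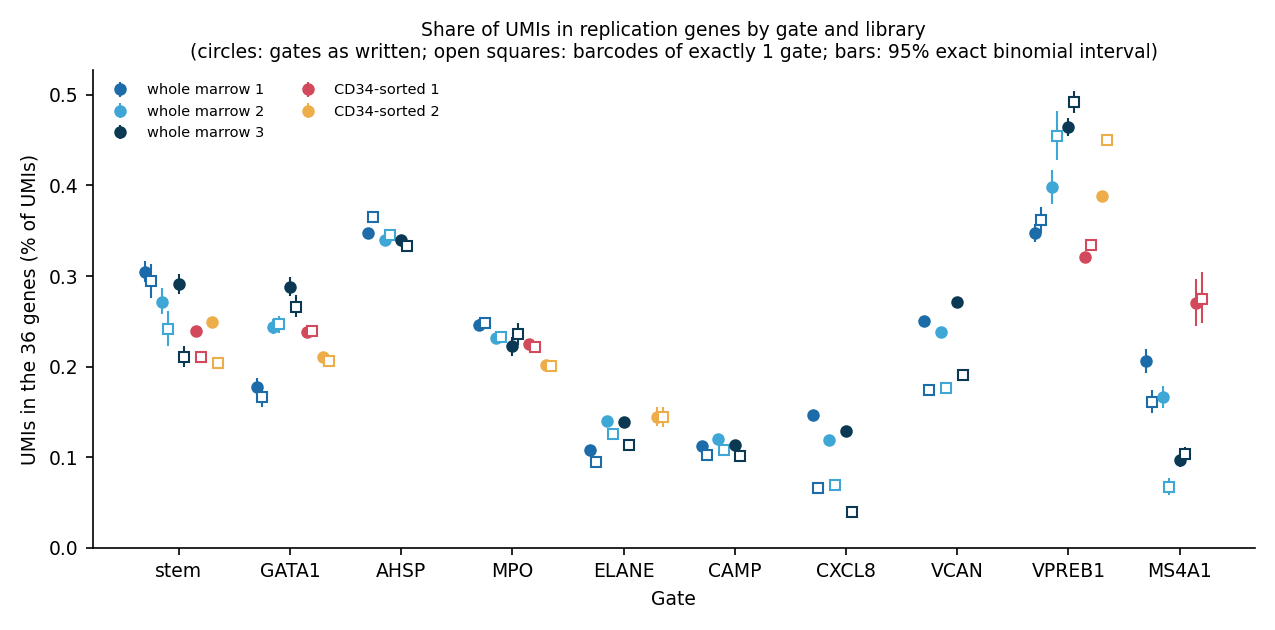
Share of UMIs in the 36 replication genes (vertical axis, percent of all UMIs) in each gate (horizontal axis) and library (colour), for gates of at least 10 barcodes. Circles count every barcode of a gate and open squares only barcodes of exactly 1 gate, and bars are 95% exact binomial intervals, which cover counting error only. The VPREB1 and AHSP gates are highest. Among squares, the CXCL8 gate (0.0391% to 0.0696%) is lowest in marrows 1 and 3. In marrow 2 the square of the MS4A1 gate is lower, at 670 CPM for the 36 genes against 696 CPM in the CXCL8 gate.

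Gates overlapped, and the shares of the CXCL8 and VCAN gates depended on the overlap. The CXCL8 gate as written held 0.147%, 0.119% and 0.129% of UMIs in the 36 genes in marrows 1 to 3. Among its barcodes that met no other gate the share was 0.0656%, 0.0696% and 0.0391%. The VCAN gate likewise fell from a mean of 0.253% ± 0.0169 to 0.180% ± 0.00907 (SD, n = 3) when barcodes of other gates were left out. In marrow 2, for example, 175 of the 512 VCAN barcodes were also CXCL8 barcodes and 76 were AHSP barcodes. Which of the shared barcodes carried the difference was not tested. The comparisons below therefore use barcodes of exactly 1 gate, summed per library and gate where at least 20 barcodes were available.

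The pooled share hid different distributions over barcodes. In the AHSP gate the median barcode carried 0.349%, 0.351% and 0.325% of its UMIs in the 36 genes in marrows 1 to 3, close to the pooled share. In the VPREB1 gate the median barcode carried only 0.133%, 0.163% and 0.124%, against pooled shares of 0.362%, 0.454% and 0.492% among barcodes of that gate alone. In the VPREB1 gate the genes' UMIs were thus concentrated in part of the barcodes, in all 3 marrows. In the CAMP gate the median was 0.0271%, 0.0257% and 0.0187%. The pooled level of the 36 genes there was 1022, 1083 and 1015 CPM, so their UMIs were concentrated in part of the barcodes in that gate too. In the CXCL8 gate the median was 0 in each marrow.

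To compare barcodes at 1 depth, each was thinned to 1000 UMIs, and a barcode with at least 3 UMIs of the 36 genes was called replication-rich. In the AHSP gate 66.1%, 62.4% and 54.8% of barcodes were replication-rich in marrows 1 to 3. The share was 47.5%, 40.7% and 29.2% in the MPO gate and 29.9%, 33.3% and 37.1% in the VPREB1 gate. In the MPO gate 34 of 93, 11 of 65 and 3 of 27 barcodes had under 1000 UMIs and were left out, so its share covers the deeper barcodes only. The MPO and VPREB1 ranges overlapped, and both lay below the AHSP gate. The share was 11.1%, 14.9% and 10.1% in the ELANE gate and 10.2%, 11.1% and 11.3% in the CAMP gate, and these ranges overlapped. The order of the 2 gates depended on the threshold: with at least 2 UMIs the ELANE gate was higher in every marrow (28.9%, 29.1% and 24.2% against 16.9%, 15.8% and 17.3%), and with at least 5 it was lower in every marrow (1.48%, 2.84% and 1.01% against 3.35%, 4.72% and 3.15%). At 2000 UMIs a barcode it was higher again, at 25.9%, 46.0% and 35.4% against 21.2%, 21.2% and 19.9%. The CXCL8 gate held 1.90%, 1.48% and 1.17%, after 497, 204 and 35 barcodes under 1000 UMIs were left out, and its genes' UMIs could include free RNA, whose part was not tested. The VCAN gate held 18.1%, 16.5% and 20.3%. The MS4A1 gate varied widely between marrows, with 18.2%, 2.38% and 12.2% of 44, 42 and 90 barcodes. Before thinning, the shares with at least 3 UMIs were 95.9%, 97.4% and 96.8% in the AHSP gate and 2.72%, 4.59% and 6.08% in the CXCL8 gate, where median depths were 35648 to 52632 and 963 to 1978 UMIs a barcode.

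**Figure D2:**
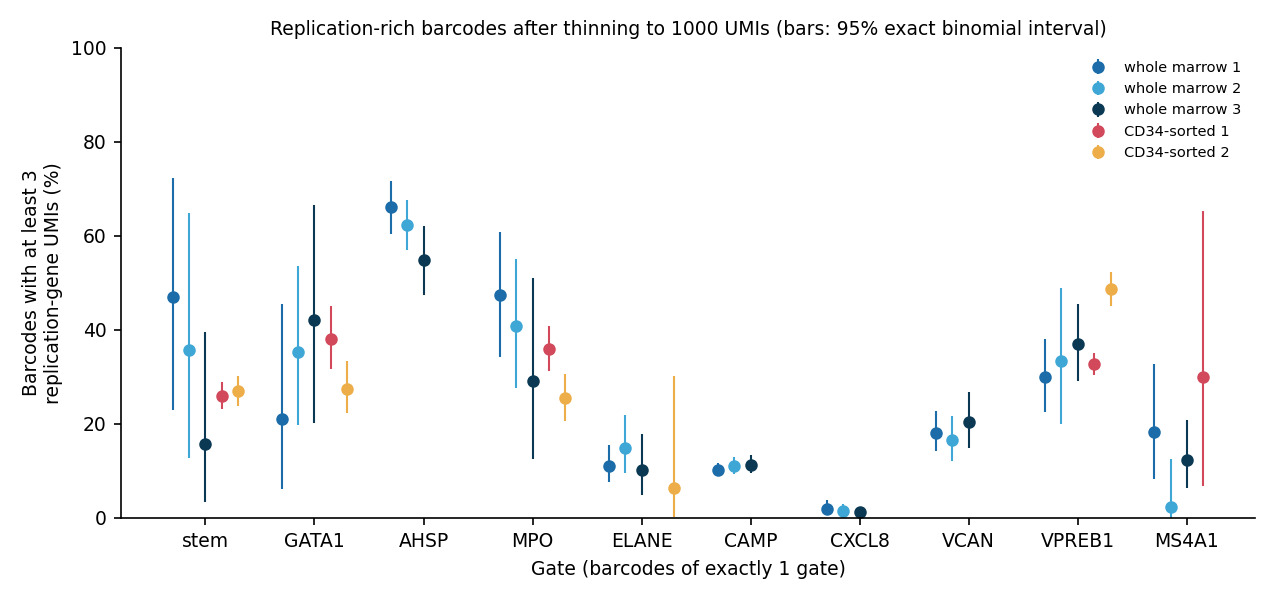
Percentage of barcodes with at least 3 UMIs of the 36 genes after thinning to 1000 UMIs (vertical axis), by gate and library, for barcodes of exactly 1 gate and gates with at least 10 such barcodes. Bars are 95% exact binomial intervals, which cover counting error only. The AHSP gate (54.8% to 66.1%) is highest and the CXCL8 gate (1.17% to 1.90%) lowest.

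In the sorted libraries the stem gate held 25.9% and 26.9% replication-rich barcodes, the GATA1 gate 38.1% and 27.5%, and the MPO gate 35.9% and 25.4%. Sorted 1 was above sorted 2 in the GATA1 and MPO gates. That difference between the libraries exceeded the range of the 3 gates in sorted 2 (25.4% to 27.5%), but not in sorted 1 (25.9% to 38.1%). The VPREB1 gate went the other way, with 32.6% in sorted 1 and 48.6% in sorted 2.

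Single genes mostly shared this order but peaked in different lineages. By mean CPM over the 3 marrows, 20 of the 36 genes were highest in the VPREB1 gate and 12 in the AHSP gate. The stem gate was highest for UNG, a uracil-DNA glycosylase, and BLM, a helicase of recombination repair, although it held under 20 barcodes in each marrow. By these means VCAN was the highest gate for RFC2, a subunit of the clamp loader, but in 0 of the 3 marrows taken singly. CXCL8 was highest for PCNA alone, and in 2 of the 3 marrows. For UNG and BLM the stem gate was highest in 1 marrow each. The CXCL8 gate was the lowest for 31 of the 36. These peaks describe 1 set of marrows, and in several genes the leading gates were close: MCM5 stood at 33.0 CPM in the VPREB1 gate and 32.9 CPM in the AHSP gate.

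**Figure D3:**
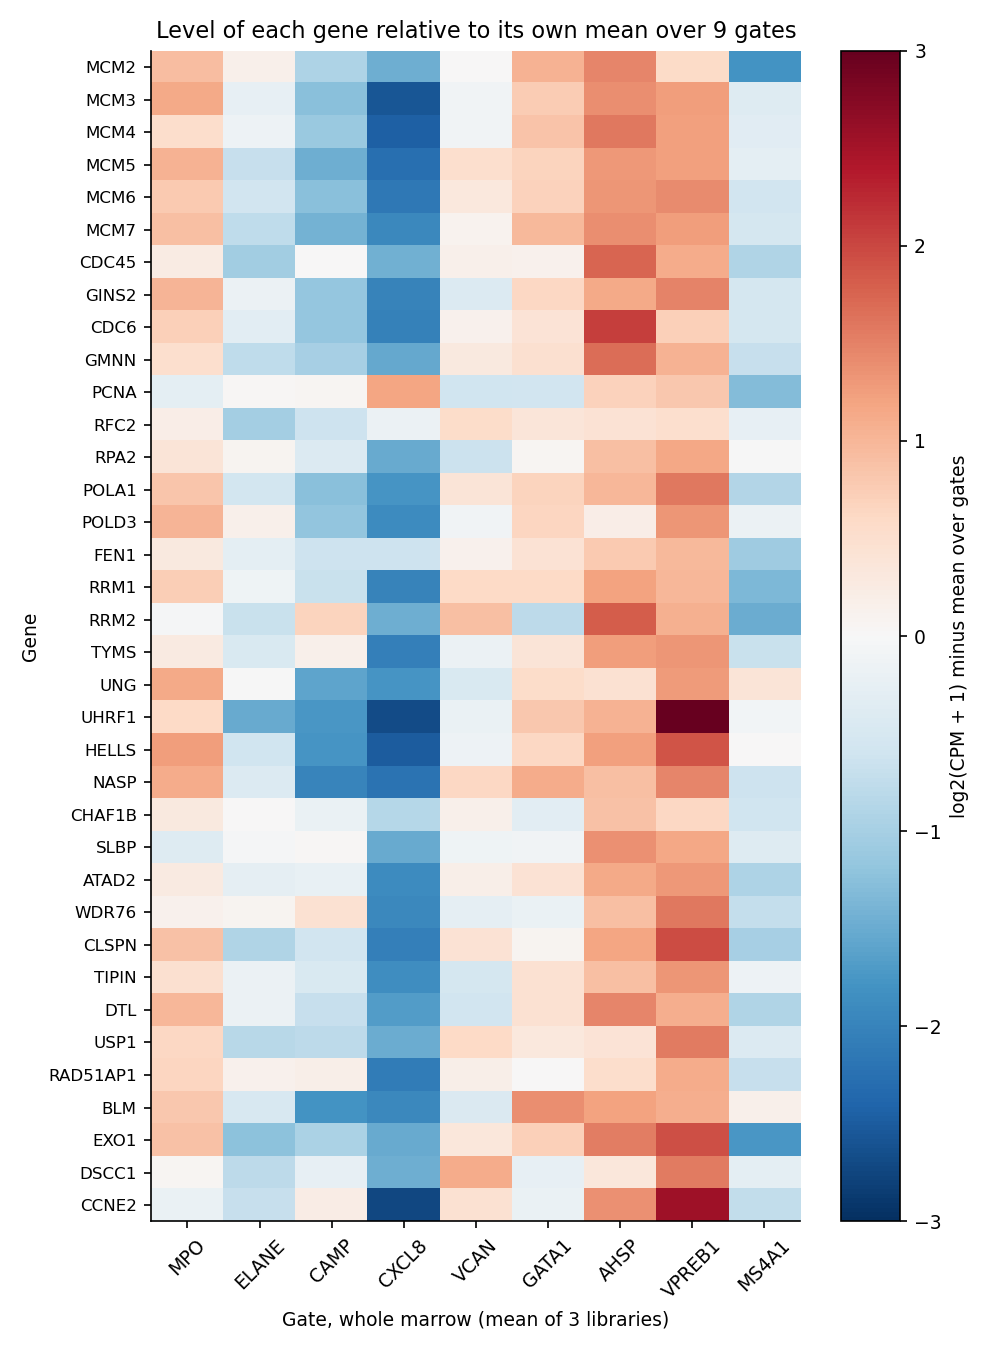
Level of each gene (rows, ordered by role from the helicase at the top to CCNE2 at the bottom) in 9 gates of whole marrow (columns), as mean log2(CPM + 1) over 3 libraries minus the gene's mean over these gates. The GATA1 column holds 19, 34 and 19 barcodes. Red in the VPREB1 and AHSP columns and blue in the CXCL8 column run through nearly every row, and PCNA has its highest level in the CXCL8 column.

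Some roles separated the VPREB1 and AHSP gates and others did not. The roles were grouped for description, with the results known. The 10 licensing and helicase genes summed to 708, 1047 and 1122 CPM in the VPREB1 gate and 1167, 1101 and 1088 CPM in the AHSP gate. The ranges overlapped. The 4 nucleotide genes summed to 613, 635 and 839 CPM in the VPREB1 gate and 854, 736 and 725 CPM in the AHSP gate, again with overlap. The 6 fork synthesis genes summed to 322, 436 and 510 CPM in the VPREB1 gate and 268, 380 and 316 CPM in the AHSP gate. Their VPREB1 sum was higher in each marrow, but the ranges overlapped. The 7 chromatin genes summed to 1103, 1449 and 1471 CPM in the VPREB1 gate, above their 768, 709 and 689 CPM in the AHSP gate in every marrow. The 8 fork protection, repair and cohesion genes summed to 741, 839 and 864 CPM in the VPREB1 gate, above 535, 479 and 453 CPM in the AHSP gate. The difference of these groups between the 2 gates was not tested.

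UHRF1, a chromatin gene that brings the maintenance methyltransferase DNMT1 to newly copied DNA, had the largest ratio of highest to second-highest gate of any member (6.99). Its level in the VPREB1 gate was 360, 581 and 522 CPM in marrows 1 to 3 and 353 and 500 CPM in sorted 1 and 2. In the AHSP gate, the next highest, it was 70.5, 64.7 and 74.3 CPM. At 1000 UMIs a barcode, UHRF1 was detected in 22.2%, 37.8% and 28.0% of VPREB1 barcodes and 5.59%, 7.35% and 10.2% of AHSP barcodes. It was detected in 0 of 422, 472 and 853 CXCL8 barcodes, which allows a share of up to 0.870%, 0.778% and 0.432% (exact 95% limit). Before thinning the shares were 46.6%, 62.2% and 51.7% of VPREB1 barcodes, at median depths of 2390 to 4033 UMIs. CCNE2, a cyclin of the G1/S transition, had the same peak: 131, 137 and 110 CPM in the VPREB1 gate, 54.3, 51.3 and 58.9 CPM in the AHSP gate and at most 29.0 CPM in the MPO, ELANE, CAMP, CXCL8 and VCAN gates. RRM2, CDC6, CDC45 and GMNN were instead highest in the AHSP gate in all 3 marrows.

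For differences between gates, the summed UMI counts entered edgeR's quasi-likelihood test, in 1 fit of the 25 whole-marrow sums and 1 fit of the 8 sorted sums with library as a block, with Benjamini-Hochberg adjustment over all genes and a threshold of 0.05. Fold changes are log2, after trimmed mean (TMM) scaling, with the standard error (SE). CPM values are levels without that scaling. The 2 scales part where a few granule or hemoglobin genes fill a gate: with library size alone the median of all genes shifted from -0.05 to -0.90 between the ELANE and MPO gates, from 0.05 to -0.40 between the AHSP and GATA1 gates, from 0.15 to 0.45 between the CXCL8 and CAMP gates, and from -0.02 to -0.53 between the MS4A1 and VPREB1 gates. CHAF1B, a subunit of a histone chaperone, was at 4.15 CPM or less in every whole-marrow gate and was not tested there, which left 35 genes. Each whole-marrow library came from 1 dog. With library as a block, p-values there rest on how differences between gates varied among the 3 dogs. That spread was pooled over all gates (14 residual degrees of freedom).

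From the MPO gate to the ELANE gate of the early neutrophil series, 10 of the 35 replication genes tested fell and 3 rose, where 14.5% of all genes tested fell and 16.6% rose. NASP, a histone chaperone and the member of highest level here, stood at 348, 313 and 290 CPM in the MPO gate and 91.7, 118 and 116 CPM in the ELANE gate of marrows 1 to 3. MCM6, a helicase subunit, went from 157, 172 and 207 to 51.6, 84.9 and 73.3 CPM. In both genes every ELANE value was below every MPO value. The median log2 fold change of the 35 was -0.34, against -0.05 over all genes. Lower were EXO1, an exonuclease (-1.66, SE 0.47, adjusted p = 0.005 by edgeR), UHRF1 (-1.33, SE 0.31), MCM5 (-1.13, SE 0.27), the remodeller HELLS (-1.02, SE 0.26), CLSPN (-1.0, SE 0.26) and MCM7 (-0.79, SE 0.18). Without marrow 2 the calls of EXO1, HELLS and MCM5 were lost.

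The 3 higher genes depended on the scale. PCNA was at 37.1, 49.6 and 66.5 CPM in the MPO gate and 49.1, 81.6 and 61.0 CPM in the ELANE gate, overlapping ranges, and its fold change after TMM scaling was 1.26 (SE 0.20, adjusted p = 2.9e-06 by edgeR). SLBP, which binds the end of histone mRNAs, changed by 1.17 (SE 0.22), and WDR76 by 0.95 (SE 0.32), a call lost without marrow 1 or marrow 2. With library size alone, none of the 35 was higher and 28 were lower, and PCNA changed by 0.37 with an adjusted p of 0.13. Without marrow 2 the calls fell from 13 to 8. Among 35 other replication genes 8 were lower and 1 higher, and of 18 genes of G2 and mitosis 1 was called, PLK1, a mitotic kinase, which was lower. With gates as written 9 of the 35 were higher and 7 lower.

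From the ELANE to the CAMP gate some replication genes rose and others fell. RRM2, the limiting subunit of ribonucleotide reductase, stood at 39.5, 48.7 and 38.4 CPM in the ELANE gate and 104, 103 and 116 CPM in the CAMP gate. It rose by 1.61 (SE 0.19, adjusted p = 1.7e-08 by edgeR). TYMS, which makes thymidylate, rose by 0.86 (SE 0.18), from 113, 144 and 143 to 196, 201 and 207 CPM. Both were higher in all 3 marrows without overlap. In the same gates NASP fell by 1.32 (SE 0.14) to 36.2, 37.3 and 35.0 CPM, and UNG fell by 1.98 (SE 0.40), from 2.92, 5.68 and 6.34 to 1.21, 1.15 and 0.580 CPM. TYMS and UNG both keep uracil out of DNA, and they moved in opposite directions.

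Of 35 genes 8 rose and 13 fell between these gates, where 30.8% of all genes rose and 24.9% fell (55.7% in either direction), so that the rise lay below and the fall above the share among all genes. Besides RRM2 and TYMS, the helicase activator CDC45 (1.31, SE 0.28), CCNE2 (1.18, SE 0.21), the clamp-loading factor DSCC1 (0.85, SE 0.25), WDR76 (0.70, SE 0.24), RFC2 (0.66, SE 0.16) and the checkpoint adaptor CLSPN (0.60, SE 0.25) rose. The CLSPN call was lost in 9 of 13 alternatives, among them without marrow 1 or marrow 2, and the WDR76 call in 5 of 13, among them without marrow 1. BLM (-1.40, SE 0.30), MCM2 (-1.16, SE 0.33), the polymerase delta subunit POLD3 (-1.13, SE 0.18) and HELLS (-0.99, SE 0.28, not called without marrow 2) were among those that fell. MCM3 to MCM7 fell as well, and the 6 helicase subunits MCM2 to MCM7 together went from 151, 229 and 208 to 92.5, 120 and 119 CPM. The split was 3 higher and 14 lower with library size alone, 1 higher and 12 lower with gates as written, and 7 higher and 6 lower without marrow 2.

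Genes of later cycle phases and of cycle exit were both higher in the CAMP gate. Of 18 genes of G2 and mitosis 11 rose and none fell, among them the chromatin protein HMGB2 (1.93) and the mitotic kinase AURKB (1.72). TOP2A, which untangles chromosomes, was not called, at 120, 150 and 135 CPM in the ELANE gate and 206, 238 and 207 CPM in the CAMP gate. All 6 tested inhibitors of the cycle rose, among them the antiproliferative genes BTG1 (3.04, adjusted p = 2.1e-12 by edgeR) and BTG2 (3.51) and the kinase inhibitor CDKN2D (6.21, from a level near 0). Of 16 E2F, pocket protein and cyclin genes 10 rose, led by E2F2 (3.66), and 2 fell. Of 35 other replication genes 1 rose and 17 fell, ORC1, a subunit of the origin recognition complex, by 1.33.

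From the CAMP to the CXCL8 gate 27 of 35 genes fell, 1 rose and 7 were not called. TYMS went from 196, 201 and 207 CPM to 65.2, 45.5 and 26.2 CPM (-2.53, SE 0.21, adjusted p = 1.4e-11 by edgeR), and RRM2 from 104, 103 and 116 to 35.0, 30.0 and 12.9 CPM (-2.48, SE 0.23). Marrow 3 was lowest in both. The share that fell was larger than among all genes (background 19.4% lower and 27.1% higher, 46.5% in all), with a median of -1.44 against 0.15 over all genes. The largest falls were those of CCNE2 (-3.44, SE 0.35), WDR76 (-3.16, SE 0.43), TYMS, RRM2, RAD51AP1, a recombination factor (-2.46, SE 0.28), and the chromatin ATPase ATAD2 (-2.02, SE 0.20). Of the genes of G2 and mitosis 14 of 18 fell and 0 rose. The summed level of those 18 was nevertheless higher in the CXCL8 gate of each marrow, at 5734, 6403 and 5552 CPM against 3956, 4457 and 4432 CPM in the CAMP gate. With gates as written, 13 genes were lower and 1 higher.

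PCNA was the exception. It stood at 51.5, 72.6 and 68.8 CPM in the CAMP gate and at 102, 190 and 140 CPM in the CXCL8 gate, and every CXCL8 value lay above every CAMP value. The log2 fold change was 0.80 (SE 0.17, adjusted p = 0.00015 by edgeR) and 1.13 with library size alone. At 1000 UMIs a barcode PCNA was detected in 8.77%, 17.6% and 15.0% of CXCL8 barcodes, 3.40%, 6.0% and 5.54% of CAMP barcodes and 4.55%, 4.76% and 1.11% of MS4A1 barcodes, all before any correction for free RNA. RRM2 in the same CXCL8 barcodes was detected in 1.18%, 0.847% and 0.821%. Before thinning, PCNA was found in 12.3%, 23.8% and 24.3% of CXCL8 barcodes and 14.0%, 21.3% and 24.2% of CAMP barcodes, which were deeper (median 3474 to 6061 UMIs). With the gates as written, where the CXCL8 gate also takes barcodes of other gates, the change was -0.21 with an adjusted p of 0.55.

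PCNA also departed from the other 35 genes over all gates. Across 33 sums of gate and library (25 of whole marrow and 8 sorted) Pearson's r between its log2 level and the summed level of the others was 0.08, and the next lowest was that of RRM2 at 0.60. The sums share libraries and depth, so these values are a description. In the RefSeq gene table of another dog assembly (UU_Cfam_GSD_1.0) PCNA overlaps a long noncoding RNA, LOC119865628, and 16 of the 36 genes overlap some gene there. Whether reads of the 2 were kept apart in counting was not tested. The ratio of the CXCL8 to the CAMP level was 2.24 for PCNA, 1.37 for RFC2 and 1.24 for the flap nuclease FEN1, the 3 highest, and 0.131 for WDR76, 0.138 for CCNE2 and 0.204 for CHAF1B, the 3 lowest. FEN1 and CHAF1B rested on few UMIs.

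**Figure D4:**
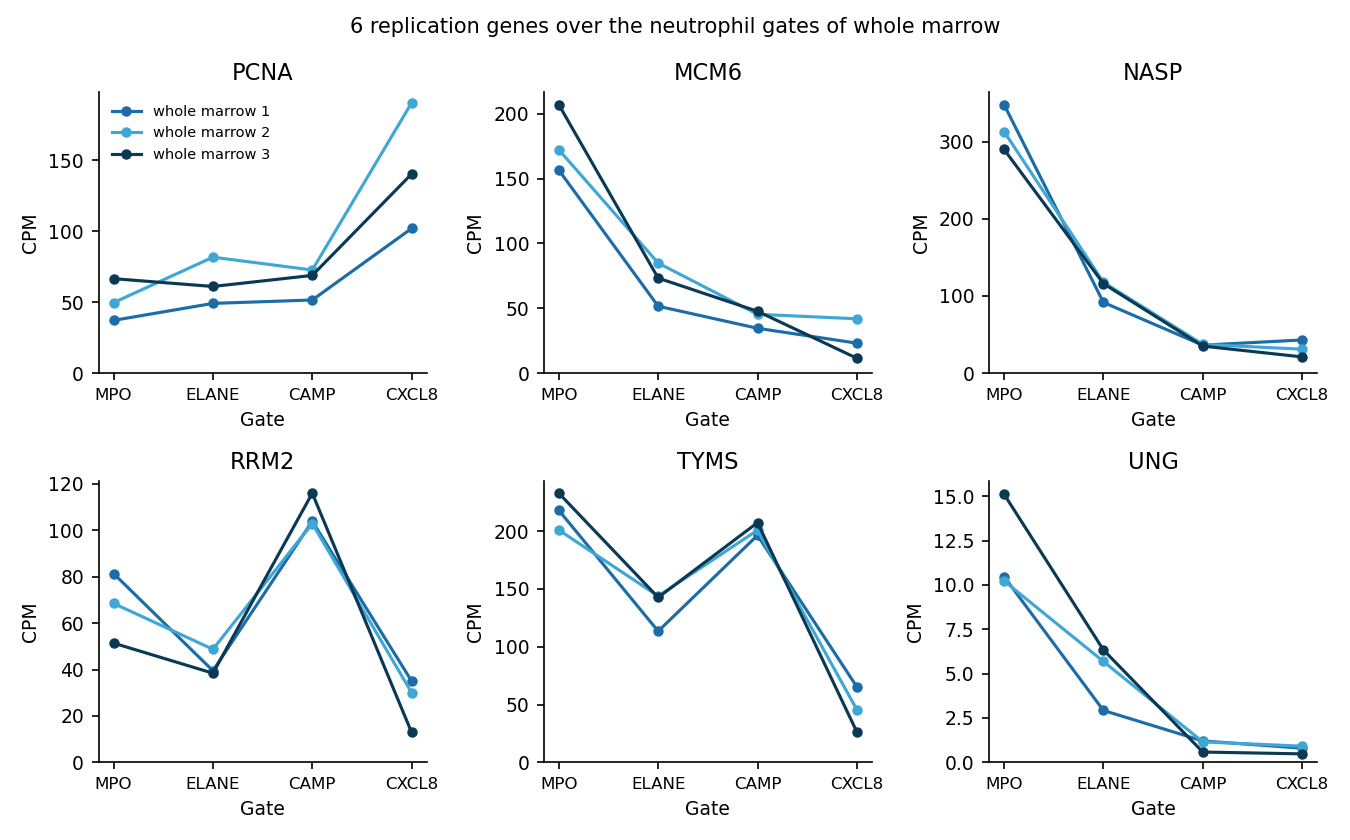
Levels in CPM (vertical axes, starting at 0) of 6 replication genes in the MPO, ELANE, CAMP and CXCL8 gates (horizontal axes) of the 3 whole-marrow libraries, 1 line a library. MCM6, NASP and UNG fall at each of the first 2 steps, RRM2 and TYMS are higher in the CAMP than in the ELANE gate, and PCNA is highest in the CXCL8 gate (102 to 190 CPM).

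The VCAN gate was compared with the MPO gate, and 7 of 10 licensing and helicase genes and 3 of 6 tested chromatin genes were lower in it. In whole marrow the VCAN gate held more secondary-granule than monocyte marker UMIs (44276 to 50607 against 2260 to 3020 CPM), and their part in these differences was not tested. MCM3 stood at 124, 84.8 and 109 CPM in the MPO gate and 36.6, 44.7 and 51.5 CPM in the VCAN gate (-1.28, SE 0.22, adjusted p = 4.5e-05 by edgeR). RRM2 went the other way, from 81.4, 68.5 and 51.4 to 127, 113 and 144 CPM (0.89, SE 0.20). Neither gene's ranges overlapped. Of 35 genes 16 were lower and 3 higher (background 17.2% lower and 21.8% higher, 39% in all). Lower by most were UNG (-1.74, SE 0.37), DTL, which targets licensing factors for destruction (-1.70, SE 0.34), HELLS (-1.45, SE 0.25), GINS2 (-1.44, SE 0.26) and BLM (-1.35, SE 0.27). DSCC1 (0.92, SE 0.25) and CCNE2 (0.63, SE 0.24) joined RRM2 among the higher, and the call of CCNE2 was lost in 6 of 14 alternatives, among them without marrow 2. None of 18 genes of G2 and mitosis was called by edgeR or passed an unadjusted p of 0.05. SAMHD1, which degrades deoxynucleotides, was higher by 3.35, at 115, 200 and 112 CPM against 11.4, 17.4 and 13.6 CPM. With gates as written the balance turned, with 5 higher and 1 lower, and 12 genes were called without the library block.

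In the erythroid series, no replication gene was called lower in the AHSP gate, whose protein stabilises alpha globin, than in the GATA1 gate. RRM2 stood at 278, 230 and 222 CPM in the AHSP gate and at 20.1, 58.8 and 49.9 CPM in the GATA1 gate. SLBP stood at 85.3, 107 and 67.2 against 27.4, 29.4 and 33.3 CPM. Only the GATA1 gate of marrow 2, with 34 barcodes, reached 20, so the test set 3 libraries against 1 and assumed that this one varied as the other sums did. Of 35 genes 16 were higher and none lower (background 11% higher and 13.5% lower), with a median of 0.92. RRM2 was higher by 2.46 (SE 0.34, adjusted p = 9.7e-07 by edgeR), SLBP by 2.25 (SE 0.34), WDR76 by 2.08 (SE 0.53), CDC45 by 2.02 (SE 0.43), the loader CDC6 by 1.82 (SE 0.45) and GMNN by 1.79 (SE 0.26).

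When sums of at least 10 barcodes were used, which brought in the GATA1 gates of marrows 1 and 3 with 19 barcodes each, 29 of 35 were higher. With library size alone it was 7. NASP and POLD3 were not called: NASP stood at 295, 256 and 267 CPM in the AHSP gate and 315, 275 and 358 CPM in the GATA1 gate, and POLD3 at 38.4, 31.6 and 37.2 against 43.9, 61.5 and 44.3 CPM. Of 16 E2F, pocket protein and cyclin genes 10 were higher, among them E2F2 (3.98) and CCNE1 (3.55), at 15.2, 30.3 and 30.2 CPM in the AHSP gate and at most 8.31 CPM in the GATA1 gate. Of the genes of nucleotide supply 5 of 14 were higher and 1 lower, and TK1, the thymidine salvage kinase, stood at 514, 456 and 370 against 113, 181 and 119 CPM.

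In the B lineage 26 of 35 tested genes were lower in the MS4A1 gate than in the VPREB1 gate. The VPREB1 protein is part of the surrogate light chain of B precursors. The MS4A1 gate, taken here as the later stage, also held plasma cell markers, whose part in these differences was not tested. TYMS stood at 413, 407 and 547 CPM in the VPREB1 gate and 226, 54.8 and 119 CPM in the MS4A1 gate. MCM6 stood at 218, 332 and 291 against 102, 45.1 and 70.5 CPM. The MS4A1 gate of marrow 1 was the highest of the 3 for both genes, and no values overlapped. Of 35 genes 26 were lower and none higher (background 9.48% lower and 9.15% higher), with a median of -1.29 against -0.02 over all genes. Lower by most were UHRF1 (-3.46, SE 0.33, adjusted p = 4.6e-08 by edgeR), CCNE2 (-2.79, SE 0.34), RRM1 (-2.01, SE 0.41), CLSPN (-1.93, SE 0.34) and POLA1, the catalytic subunit of the priming polymerase (-1.89, SE 0.33). EXO1 stood at 18.3, 20.8 and 29.2 CPM in the VPREB1 gate and 5.09, 0 and 0 CPM in the MS4A1 gate. Its fitted fold change of -3.50 (SE 0.79) rested on few UMIs, ran from -8.84 to -1.32 over 12 alternatives, and was not called without marrow 3 or with gates as written.

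Later phases fell with them. Of 18 genes of G2 and mitosis 17 were lower, and of 35 other replication genes 18. DCK, which salvages deoxycytidine, was lower by 4.39, at 87.1, 262 and 63.0 CPM in the VPREB1 gate and 2.54, 3.22 and 4.41 CPM in the MS4A1 gate. The number of lower genes was 13 without marrow 3, 16 without marrow 2 and 17 with gates as written. The MS4A1 gate held 44, 42 and 90 barcodes.

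Within the sorted libraries the VPREB1 gate could be set against the stem gate of the same libraries, and 22 of 36 replication genes rose. UHRF1 stood at 58.3 and 82.1 CPM in the stem gate and 353 and 500 CPM in the VPREB1 gate (2.41, SE 0.14, adjusted p = 7.3e-06 by edgeR). CCNE2 stood at 19.0 and 19.7 against 90.4 and 123 CPM (2.25, SE 0.14), and RRM2 at 20.3 and 20.6 against 66.3 and 125 CPM (2.00, SE 0.23). Sorted 2 was the higher library of the VPREB1 gate in all 3. Of 36 genes 22 were higher and 1 lower (background 17.5% higher and 21.3% lower, 38.7% in all), and the median was 0.59 against -0.01 over all genes. PCNA (1.44, SE 0.18), CLSPN (1.44, SE 0.28) and EXO1 (1.32, SE 0.31) followed, and BLM was the 1 gene lower (-0.53, SE 0.14). Of the genes of G2 and mitosis 17 of 18 were higher, and DCK by 4.07. Without the library block 14 of the 36 were higher.

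The helicase was a partial exception to that rise. MCM5 (0.54) and MCM6 (0.42) were higher in the VPREB1 gate. MCM2, MCM3, MCM4 and MCM7 were not called, with fold changes of -0.22, 0.02, 0.34 and 0.14. MCM7 stood at 167 and 164 CPM in the stem gate and 195 and 221 CPM in the VPREB1 gate. NASP, HELLS and GINS2 were not called either, at 0.26, 0.17 and -0.03.

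The MPO and GATA1 gates of the sorted libraries were compared with the stem gate. Of 36 genes, 2 were higher and 1 lower in the MPO gate than in the stem gate, where 11.9% of all genes were higher and 14.6% lower, 26.5% in all. RRM2 stood at 41.4 and 42.4 CPM against 20.3 and 20.6 CPM (1.09, SE 0.23, adjusted p = 0.01 by edgeR), and MCM4 at 51.5 and 43.9 against 36.2 and 36.4 CPM (0.44, SE 0.14), a call lost in 5 of 11 alternatives. UHRF1 was lower, at 45.3 and 48.4 against 58.3 and 82.1 CPM (-0.51, SE 0.14). In the GATA1 gate none was higher and 2 were lower, UHRF1 (-0.71, SE 0.14) at 43.5 and 42.3 CPM and UNG (-0.71, SE 0.18) at 12.7 and 7.15 against 17.3 and 14.0 CPM, where 4.64% of all genes were higher and 7.28% lower, 11.9% in all. Fits of 2 gates alone called 16 and 13 genes, and gates as written 13 and 5. Without the library block 1 gene was called in the MPO gate and 0 in the GATA1 gate by edgeR, where DESeq2 called 1 and 6 had an unadjusted p under 0.05 in the fit with the block.

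Of the stage genes beside them, 3 of 18 genes of G2 and mitosis were lower in the MPO than in the stem gate, TOP2A by 1.11, and 4 of 5 inhibitors of the cycle were lower, BTG2 by 1.25. In the GATA1 gate AURKA, a mitotic kinase, was the 1 gene of that list called higher (1.13).

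The sorted libraries were compared with whole marrow over all kept barcodes. Over all kept barcodes the 36 genes summed to 2008, 2285 and 2113 CPM in marrows 1 to 3 and 2439 and 2579 CPM in sorted 1 and 2. Of 36 genes 4 were higher and 6 lower in the sorted libraries (background 15.9% higher and 17.3% lower, 33.2% in all), shares no larger than among all genes. Higher were UHRF1 (1.31, SE 0.23, adjusted p = 0.0098 by edgeR), UNG (1.15, SE 0.25), POLD3 (0.78, SE 0.12) and NASP (0.45, SE 0.11). Lower were RRM2 (-1.72, SE 0.18), SLBP (-1.09, SE 0.22), CDC6 (-0.93, SE 0.14), CDC45 (-0.81, SE 0.14), GMNN (-0.57, SE 0.13) and ATAD2 (-0.45, SE 0.11). These libraries differed in cell makeup, as marrow held 296, 346 and 190 barcodes of the AHSP gate alone and the sorted libraries 1 and 0. Fewer cells of a type and less RNA per cell cannot be told apart in such sums. With library size alone 11 were higher and 4 lower. The 10 calls became 6 without marrow 3, 4 without sorted 1 and 4 without sorted 2. Each of the calls but those of RRM2 and POLD3 was lost on leaving out at least 1 library: without sorted 1 those of UNG, NASP, CDC6, CDC45, GMNN and ATAD2, and without sorted 2 those of UHRF1, NASP, SLBP, CDC45, GMNN and ATAD2.

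Within a gate, sorted and whole marrow did not differ by a called replication gene. In the MPO gate edgeR called none of 34 tested (background 0.463% of all genes in either direction, 0.0281% higher), 7 had an unadjusted p under 0.05, and DESeq2 called 1, RAD51AP1. In the VPREB1 gate it called none of 35 (0.204%), none had an unadjusted p under 0.05 and DESeq2 called none. In the GATA1 gate, with 2 sorted libraries against marrow 2 alone, it called none of 36 (3.35%, with 1.67% higher and 1.67% lower), 5 had an unadjusted p under 0.05 and DESeq2 called none. The 7 of the MPO gate were lower in the sorted libraries, among them RRM2 (-0.65, 81.4, 68.5 and 51.4 CPM in whole marrow against 41.4 and 42.4 CPM) and CDC45 (-0.99). A p that misses the threshold does not show equal levels, and in these fits with 3 or fewer residual degrees of freedom small differences could not be seen.

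MCM5 differed between marrows more than between many gates. In marrow 1 it stood at 5.71 CPM in the MPO gate, 10.7 in the AHSP gate and 8.43 in the VPREB1 gate. In marrows 2 and 3 it stood at 45 and 42.3 CPM, 52.1 and 35.9 CPM, and 49.8 and 40.7 CPM in the same gates. Marrow 1 was lowest in 7 of the 8 gates with at least 20 barcodes in each marrow, and its median log2 difference from the mean of the others was -1.79, the 172nd lowest of 7022 genes. MCM6 was lowest in marrow 1 in 6 of the 8 gates, but by a median of -0.29, with 246, 256 and 267 CPM in the AHSP gate. PCNA was also lowest in marrow 1 in 7 of the 8 gates, with a median difference of -0.66. The drop of MCM5 from the MPO to the ELANE gate was not called without marrow 2 (adjusted p = 0.076 by edgeR) or without the library block (adjusted p = 0.35).

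**Figure D5:**
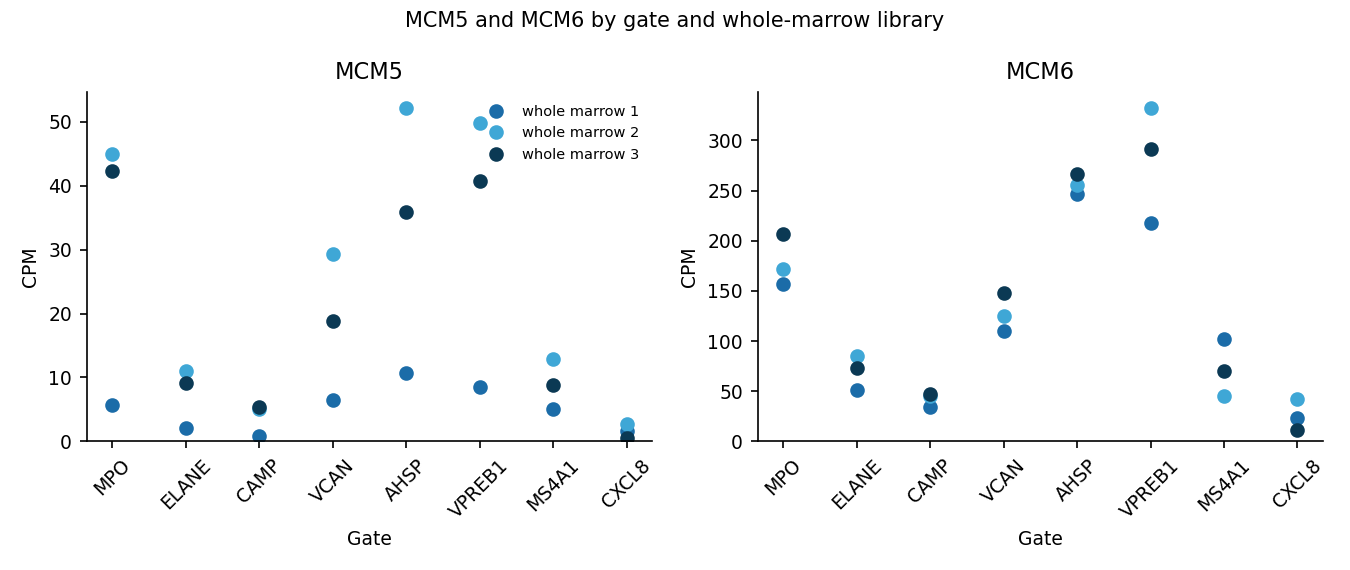
Levels in CPM (vertical axes, starting at 0) of MCM5 and MCM6 by gate (horizontal axes) in the 3 whole-marrow libraries, 1 point a library. MCM5 of marrow 1 lies below both other marrows in 7 of 8 gates, and in the CXCL8 gate it lies between them.

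Genes outside the list followed its summed level closely. Across the 33 sums the 10 genes of highest Pearson's r with the summed level, of 9849 compared, were ATAD5, which unloads PCNA (0.97), DNMT1 (0.96), THOC6 (0.96), NSD2 (0.96), NUCKS1 (0.96), BRCA2 (0.95), SUZ12 (0.95), HMGB1 (0.95), RBBP8 (0.94) and EFTUD2 (0.94). The sums share libraries, depth and the cells of the cycle, and these values are a description without a test.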

How the data were processed

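The deposited matrices hold raw UMI counts per gene and barcode, made with Cell Ranger on CanFam3.1. Its version is 7.0.1 in the headers of the files, while the submitters' processing notes name 7.1.0. The members and gene lists were chosen with earlier results of these data known. Barcodes were filtered and gated as the report states. Counts of barcodes of exactly 1 gate were summed per library and gate (at least 20 barcodes) and tested with edgeR 4.0.16 in R 4.3.3, with TMM scaling, its expression filter and a robust quasi-likelihood fit. The sorted and whole libraries were compared over 5 sums without a block, or 3 sums for the GATA1 gate. Gate genes were left out of counts over all genes. Genes were named by rank of level and of fold change among those past the threshold, with every call against the majority direction, and up to 3 genes of each other list. Where a gene outside that rule is named with its levels, it was chosen after its values were seen. Scrublet (scanpy 1.11.5) called 426, 168 and 151 doublets in the marrows and 178 and 113 in the sorted libraries, which were left out only as an alternative. In simulated counts, 2-fold changes were recovered in 58% of cases for CAMP against ELANE (9604 genes), 44% for MS4A1 against VPREB1 (9508 genes), 29% for sorted MPO against stem (10114 genes) and 56% for sorted against whole in the MPO gate (6906 genes), with 2.70% to 7.25% of calls false, and 4-fold changes in 99% to 100%. The simulated counts had the same spread for every gene and no difference between libraries beyond depth. Only genes expected to reach 20 UMIs in the smallest sum compared were changed, so recovery at lower levels was not simulated. Intervals are exact (Clopper-Pearson) and cover counting error only. Alternatives were DESeq2 1.42.0, library-size scaling, other filters and gates, and leaving out libraries.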

Additional observations from a re-analysis of the deposited data

Results flagged for a closer look

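Barcodes that met none of the 10 gates were used in no comparison between gates, and entered only the sums over all kept barcodes. They also carried UMIs of the 36 replication genes. The share was 0.127% in marrow 1, 0.154% in marrow 2 and 0.141% in marrow 3, between the CXCL8 barcodes of that gate alone and the MPO gate of the same marrows. In sorted 1 and sorted 2 it was 0.219% and 0.244%, close to the stem, GATA1 and MPO gates of those libraries. These barcodes numbered 2348, 1220 and 1069 in the marrows and 970 and 707 in the sorted libraries. Their cell types were not determined.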

How the results depend on the processing

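Of 157 recomputed counts of called genes over 13 comparisons, 127 stayed within 1.5 times, and of 895 recomputed calls of named genes 803 kept their direction and side of the threshold, 90 lost the call and 2 turned sign. With library size alone, 28 genes were called between the ELANE and MPO gates, 7 between AHSP and GATA1, and 15 between sorted and whole libraries, where the balance turned to 11 higher. With gates as written the counts were 13 (CAMP against ELANE), 14 (CXCL8 against CAMP), 28 (AHSP against GATA1), 17 (MS4A1 against VPREB1), 6 with the balance turned (VCAN against MPO), 13 and 5 (sorted MPO and GATA1 against stem) and 1 (sorted against whole, MPO gate). PCNA then turned to -0.21 between the CXCL8 and CAMP gates, and BLM to 0.18 between the VCAN and MPO gates. A fit of 2 gates called 16 and 13 genes in the sorted MPO and GATA1 gates against stem. DESeq2 called 1 for GATA1 against stem and 1 within the MPO gate, as did the fit without a low-count filter for the latter. AHSP against GATA1 gave 28 at a mitochondrial limit of 15% and 29 with sums of 10 barcodes, an alternative chosen after seeing the data. The cause was not tested.

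Without the replicate block the counts were 8 (ELANE against MPO), 12 (VCAN against MPO), 1, 0 and 14 (sorted MPO, GATA1 and VPREB1 against stem). With a replicate block that pairs sorted with whole libraries, an assumption since the titles do not pair them, 12 genes were called over all barcodes, 0 in the MPO gate and 0 in the VPREB1 gate.

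Leaving out 1 library at a time gave 8 to 14 calls for ELANE against MPO, 13 to 21 for CAMP against ELANE, 20 to 30 for CXCL8 against CAMP, 16 to 20 for AHSP against GATA1 (not estimable without marrow 2), 13 to 28 for MS4A1 against VPREB1, 14 to 20 for VCAN against MPO and 4 to 11 for sorted against whole. It was not run among gates of the sorted libraries, which leaves no residual degrees of freedom, nor were AHSP against GATA1 with 2 gates or 50 barcodes.

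Among barcodes of exactly 1 gate the mean share moved to 0.348% (AHSP), 0.104% (CAMP), 0.0581% (CXCL8), 0.180% (VCAN) and 0.208% (sorted stem). The replication-rich share follows its threshold. With at least 2 UMIs the means were 79.8% (AHSP), 59.7% (MPO), 27.4% (ELANE), 16.7% (CAMP), 5.40% (CXCL8), 27.8% (VCAN), 48.0% (VPREB1) and 22.4% (MS4A1), and 46.0%, 50.3%, 52.8% and 54.2% in the sorted stem, GATA1, MPO and VPREB1 gates. With at least 5 they were 11.1% (GATA1), 26.1% (AHSP), 15.4% (MPO), 1.78% (ELANE), 3.74% (CAMP), 0.189% (CXCL8), 7.21% (VCAN) and 20.4% (VPREB1), and 7.53%, 10.6%, 7.34% and 24.7% in the same sorted gates. At 2000 UMIs they were 54.9% (GATA1), 91.5% (AHSP), 68.5% (MPO), 35.8% (ELANE), 20.8% (CAMP), 8.19% (CXCL8), 29.9% (VCAN), 60.4% (VPREB1) and 22.8% (MS4A1), and 57.2%, 57.1%, 66.5% and 67.7% in the sorted gates.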
